A study of Mus musculus with 4 samples.

Results

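The proteasome genes described here are the subunits, regulators and assembly factors of the proteasome that carry mouse gene symbols of the Psma to Psmg series. They were taken from the count table as protein-coding genes whose GENCODE M21 symbol is Psm followed by a letter from a to g and a number, with at least 20 counts summed over the 4 libraries. The rule found 48 genes among 54532 gene IDs, of which 21918 are protein-coding. No gene with such a symbol fell below the 20 counts, and each of the 48 also passed the filter for low counts in the test. They comprised 8 alpha and 7 beta subunits of the core particle, 4 inducible or tissue-restricted beta subunits, 6 ATPase subunits, 11 lid and other non-ATPase subunits, 7 assembly factors, and 5 activators or inhibitors.

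RNA was sequenced from cranial neural tubes microdissected from mouse embryos at embryonic day 10.5, in 2 Control and 2 DCKO libraries, each from a different embryo. DCKO (double conditional knockout) embryos had floxed alleles of Lats1 and Lats2 on both chromosomes (genotype flox/flox for each) together with 1 copy of the Cre transgene E2f1 Tg(Wnt1-cre)2Sor. Control embryos lacked that transgene, and the labels do not say whether they carried floxed alleles. Lats1 and Lats2 encode the core kinases of the Hippo pathway. Cre driven by Wnt1 sequences acts in dorsal cells of the neural tube and in the neural crest derived from them, so part of the dissected tissue is outside its reach, and the transgene is present in every DCKO library and in no Control library. Xist, transcribed from the inactive X, was also split by group, with 10837 and 7786 counts in Control against 8 and 22 in DCKO. A difference in embryo sex therefore cannot be told apart from genotype in any gene below.

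The proteasome degrades ubiquitin-tagged proteins. Its core particle is a barrel of alpha-subunit rings enclosing beta-subunit rings, and Psmb5, Psmb6 and Psmb7 encode the proteolytic beta subunits. A regulatory particle caps the barrel: its lid and scaffold subunits receive and deubiquitinate the substrate, and its ring of ATPases unfolds it and feeds it into the core. In immune cells and under interferon, Psmb8, Psmb9 and Psmb10 replace the constitutive catalytic subunits to form the immunoproteasome, and Psme1 and Psme2 form an alternative cap. Dividing embryonic progenitors depend on proteasomal turnover of cell cycle regulators and signalling proteins.

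Library totals ranged from 41798361 to 55137810 counts. Levels are given as CPM, counts scaled by library depth after correction by the trimmed mean of M values (TMM), for comparisons of 1 gene between libraries, and as deposited TPM, which is scaled for transcript length, for comparisons between genes. Of 19207 genes tested, edgeR's quasi-likelihood test called 1716 higher and 1558 lower in DCKO at an adjusted p under 0.05. With library totals in place of TMM the split was 1219 higher and 3744 lower. Several tissue markers differed between the same libraries: 7 of 8 neural progenitor markers were called lower (summed CPM 2285 and 2568 in Control, 840 and 696 in DCKO) and 7 of 8 erythroid markers were called lower (2538 and 3769 against 890 and 656). Cranial mesenchyme markers were called higher in 7 of 8 cases (301 and 348 against 2154 and 1009), surface ectoderm markers in 6 of 8 (16.3 and 28.8 against 250 and 254) and endothelial markers in 5 of 8 (164 and 154 against 692 and 403). Every marker of these 5 lists had counts in all 4 libraries. The part of this shift in the values below was not tested. In bulk tissue, fewer cells of a type and less RNA per cell cannot be told apart. For the targeted genes, Lats1 stood at 44.2 and 65.6 CPM in Control against 30.0 and 29.7 in DCKO (edgeR adjusted p = 0.0538), and Lats2 at 26.7 and 13.3 against 21.2 and 35.3 (edgeR adjusted p = 0.426).

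Most proteasome genes differed little between Control and DCKO against a background in which many genes differed. A single member, Psmb5, was called lower, and none was called higher. That call was close to the threshold and was lost under several alternatives given below. By edgeR, 1 of 48 members (2.08%) was called lower, where 8.11% of all tested genes were, and 0 of 48 higher, where 8.93% were. At an unadjusted p under 0.05, 8 members (16.7%) were lower and 0 higher, beside 17.4% and 18.5% of all tested genes. DESeq2 and limma-voom likewise called 0 members higher, and called 5 (beside 13.5% of all genes) and 1 (beside 9.01%) lower, where they called 13.5% and 9.43% of all genes higher. With library totals in edgeR 18 members were lower (beside 19.5% of all genes) and 0 higher (beside 6.35%), and with log2(TPM + 1) 3 of 44 were lower (beside 11.5%) and 0 higher (beside 6.81%). In 24 members (50%) both DCKO libraries lay below both Control libraries, where 32.9% of all tested genes did, and in 4 (8.33%) both lay above, where 33.6% did. The median log2 fold change (DCKO over Control) was -0.13 over the members, with quartiles of -0.33 and 0.04. Over all tested genes it was 0.03, with quartiles of -0.52 and 0.65. The 95% interval of the log2 fold change lay within 1 of 0, that is within a 2-fold change either way, in 42 of 48 members (87.5%), and in 28.7% of all tested genes. The width of an interval depends on the counts of the gene. Members and all tested genes were not matched for level, so these 2 shares do not compare like with like. A p that misses the threshold does not show that the groups are alike, and for 40 members the interval included 0.

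**Figure D1:**
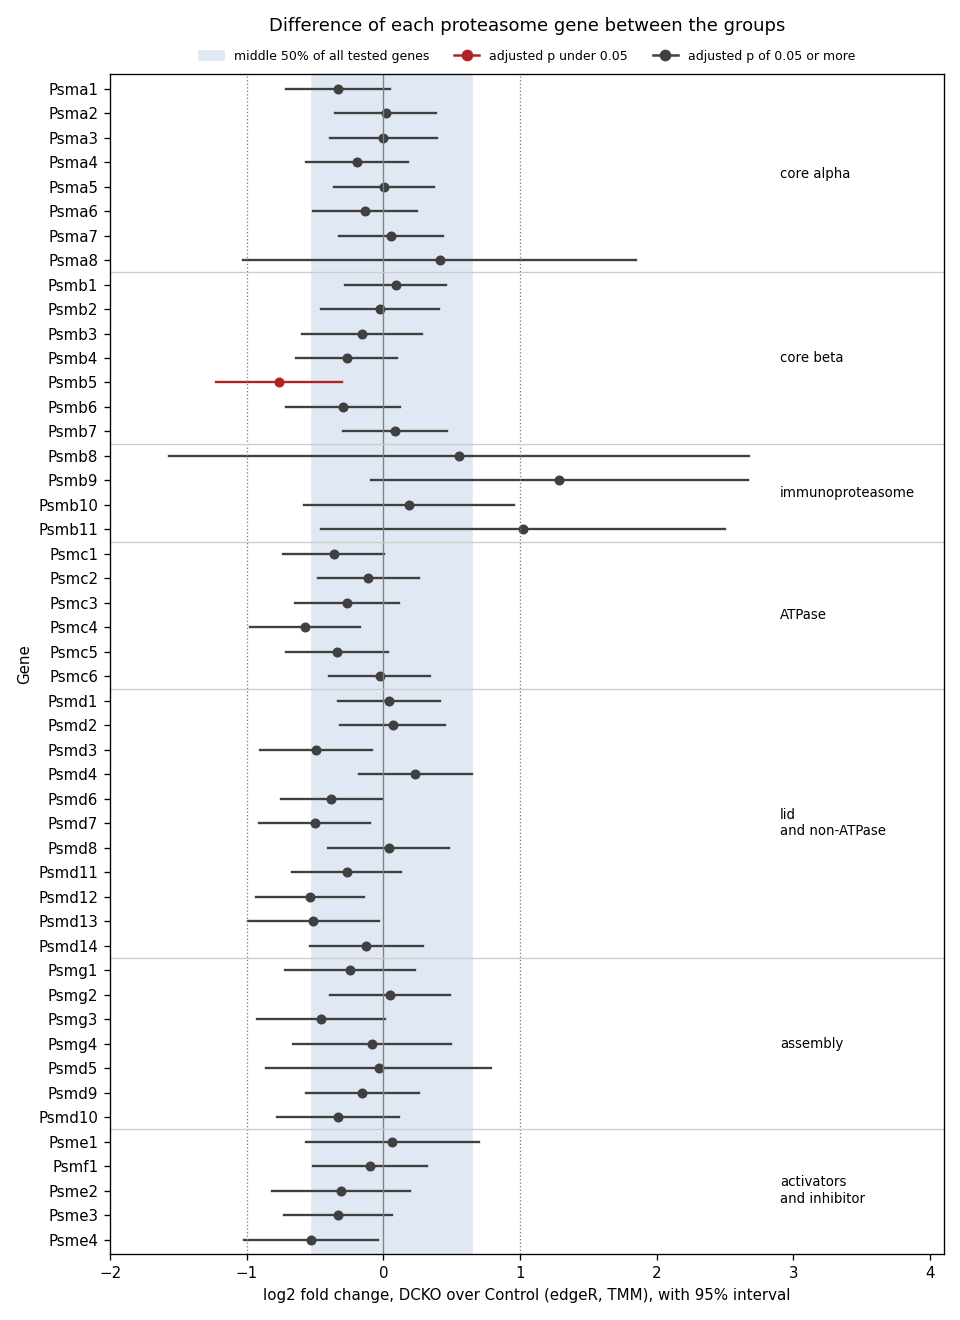
Fitted log2 fold change of each of the 48 proteasome genes, DCKO over Control, with its 95% interval, on a linear axis of log2 units; the shaded band spans the quartiles of all tested genes (-0.52 to 0.65) and dotted lines mark -1 and 1. Psmb5 is the only gene in the colour for an adjusted p under 0.05, and the widest intervals belong to Psmb8, Psmb11, Psma8 and Psmb9.

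As a share of the transcriptome, proteasome genes made up 0.728% and 0.637% of all TPM in Control 1 and Control 2, and 0.466% and 0.559% in DCKO 1 and DCKO 2. Their summed CPM was 5620 and 5752 in Control against 4964 and 5066 in DCKO. Both DCKO libraries were below both Control libraries on either scale. In summed CPM the nearest libraries of different groups lay further apart than libraries of the same group, and in share of TPM they did not. The TMM factors were 1.14 and 1.12 in Control against 0.888 and 0.885 in DCKO, so that without them the gap is wider, at 0.638% and 0.644% of all counts against 0.440% and 0.448%.

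The order of the members' levels was nearly the same in every library. Spearman's rho of TPM over the 48 members was 0.991 between the Control libraries, 0.983 between the DCKO libraries and 0.966 to 0.983 between libraries of different groups, as a description across genes of libraries that share 1 annotation and length scaling. Psmb6, which encodes the caspase-like catalytic subunit, had the highest level, with TPM of 535 and 528 in Control against 330 and 413 in DCKO. The 14 constitutive core subunits, which enter each barrel in equal numbers, ranged in mean TPM from 82.4 (Psma3) to 532 (Psmb6) in Control, a 6.46-fold range, and from 78.3 to 371 in DCKO, a 4.74-fold range with the same subunits at both ends. ATPase genes ranged from 102 (Psmc6) to 251 (Psmc3) mean TPM in Control. Lid and other non-ATPase genes ranged from 109 (Psmd11) to 293 (Psmd2, which encodes a scaffold subunit). Assembly factors, which leave the finished particle, were lower, from 19.9 (Psmd9) to 69.1 (Psmg4). The class of activators and inhibitor ranged from 18.1 (Psmf1, the inhibitor) to 106 (Psme3). Psmb11, the beta subunit of thymic epithelium, had the lowest level of all members at 0.0982 and 0.132 TPM in Control against 0.224 and 0.177 in DCKO.

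**Figure D2:**
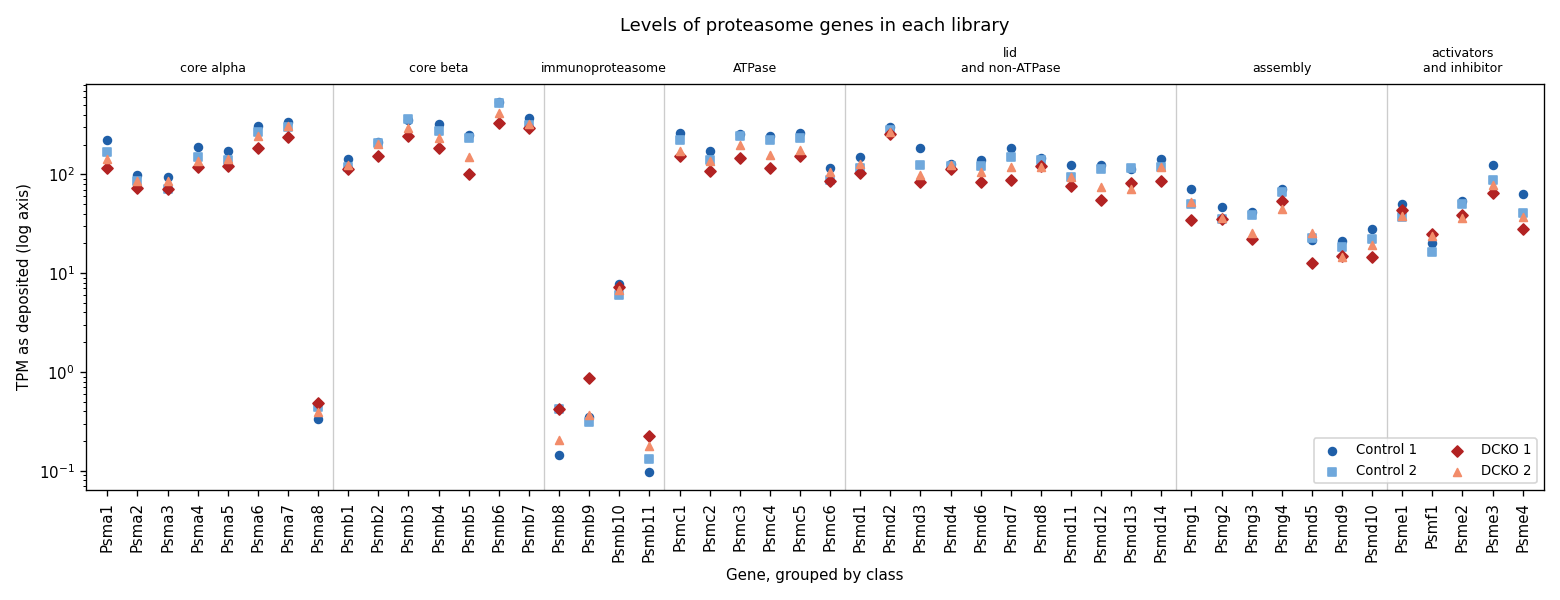
Deposited TPM of each proteasome gene in each of the 4 libraries, on a log axis, with 1 symbol per library and genes grouped by class. Constitutive subunits lie within a narrow band in every library, Psmb6 is highest and 4 genes (Psma8, Psmb8, Psmb9 and Psmb11) have a mean below 1 TPM.

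Alpha subunits, which form the gate of the core and dock its caps, showed little difference. None of 8 was called by edgeR in either direction, the class median log2 fold change was 0.00, and the summed CPM was 982 and 986 in Control against 926 and 948 in DCKO. Psma5 had 115 and 112 CPM in Control against 114 and 114 in DCKO, and Psma3 had 126 and 112 against 116 and 122. The groups overlapped in both genes. Psma1 had the smallest p of the class: 139 and 128 CPM in Control against 104 and 109 in DCKO. Its groups did not overlap, with a log2 fold change of -0.33 (SE 0.15, 95% interval -0.71 to 0.05, edgeR adjusted p = 0.184). Psma4 (116 and 111 against 101 and 97.6 CPM) and Psma6 (160 and 172 against 147 and 156 CPM) also had both DCKO libraries below both Control libraries. Psma8, a germ-cell alpha subunit, was barely detected, with 19 and 25 counts in Control against 25 and 16 in DCKO. Its groups overlapped, and the 95% interval of its log2 fold change ran from -1.02 to 1.85, so these counts do not separate equal levels from a 2-fold difference.

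Among beta subunits, Psmb5 stood apart from the other 6. It encodes the subunit with chymotrypsin-like activity, the main target of proteasome inhibitor drugs, and lies on chr14:54614119-54618022 (minus strand, GRCm38; ENSMUSG00000022193). Its counts were 7462 and 6651 in Control against 2612 and 3048 in DCKO. In CPM these were 119 and 131 in Control (125 ± 8.68, SD, n = 2) and 65.3 and 82.5 in DCKO (73.9 ± 12.2, SD, n = 2). Both DCKO libraries were well below both Control libraries, and the level fell by 41.0%. The log2 fold change was -0.76 (SE 0.19, 95% interval -1.22 to -0.30, edgeR adjusted p = 0.0464). The authors' deposited table gives a logFC of -0.71 and a false discovery rate of 0.0368 for Psmb5, the only one under 0.05 among the 44 members it lists. That table lists 12574 genes, of which 15.6% are higher and 13.2% lower at that threshold. The call was close to the threshold and was lost by edgeR without Control 1 (adjusted p = 0.185), without Control 2 (0.226) or without DCKO 1 (0.0661), while the log2 fold change stayed between -0.94 and -0.61 over the 4 omissions. Leaving out a Control library cut calls over all genes to 245 higher and 138 lower (Control 1) or 155 higher and 72 lower (Control 2), so lost calls were common in those fits.

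Reads of Psmb5 are also hard to place, because the genome holds a processed copy of its transcript. The copy, Gm3375 (ENSMUSG00000107470), is annotated as a processed pseudogene on chr7:3181093-3181888 and matches the Psmb5 transcript at 98.87% identity over 796 bases. Over the 795 bases aligned without a gap there were 8 mismatches and an identical run of 194 bases. The stretch of 90 bases printed here, Psmb5 coding bases 376 to 465 with the matching bases 377 to 466 of Gm3375, is shown because it contains 3 of the mismatches, set in capitals, and shows how few bases separate the genes.
Psmb5: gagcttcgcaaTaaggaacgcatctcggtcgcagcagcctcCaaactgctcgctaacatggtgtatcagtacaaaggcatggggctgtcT
Gm3375: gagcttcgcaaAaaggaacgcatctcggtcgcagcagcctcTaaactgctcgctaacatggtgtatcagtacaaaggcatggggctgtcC
Gm3375 held 990 and 1827 counts in Control against 801 and 858 in DCKO. That was 11.7% and 21.5% of the counts of both genes together in Control against 23.5% and 21.97% in DCKO. Its CPM was 15.8 and 36.1 against 20.02 and 23.2, and the groups overlapped (log2 fold change -0.26, edgeR adjusted p = 0.671). Summed over both genes, the CPM was 135 and 168 in Control (151 ± 23.0, SD, n = 2) and 85.3 and 106 in DCKO (95.5 ± 14.4, SD, n = 2). The groups of the sum did not overlap, but its log2 fold change of -0.66 no longer passed edgeR's threshold (adjusted p = 0.0735). Which of the counts assigned to the copy arose from Psmb5 was not tested.

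**Figure D3:**
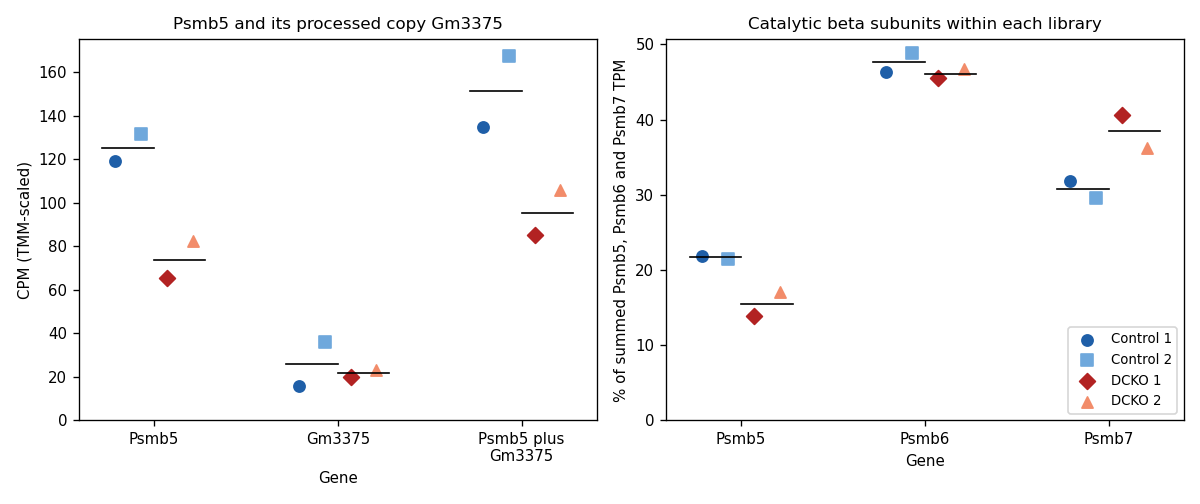
Left, CPM of Psmb5, of its processed copy Gm3375 and of their sum in each library; right, share of each constitutive catalytic subunit in the summed TPM of Psmb5, Psmb6 and Psmb7. Both axes are linear and start at 0, black lines are group means, and Psmb5 in DCKO lies below Control on both measures while Psmb7 takes a larger share.

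The proportions of the 3 constitutive catalytic subunits are given as values in each library, without a test. Psmb5 made up 21.9% and 21.5% of the summed TPM of Psmb5, Psmb6 and Psmb7 in Control against 13.8% and 17.0% in DCKO. Psmb7, the trypsin-like subunit, made up 31.8% and 29.6% in Control against 40.7% and 36.3% in DCKO. The groups did not overlap for either share, whereas for Psmb6 they did (46.3% and 48.9% against 45.5% and 46.7%). The shares are parts of the same sum, so a lower share of Psmb5 raises the others. Psmb7 TPM itself was 368 and 320 in Control against 294 and 321 in DCKO. Psmb5 TPM leaves out Gm3375, so the limit on placing its reads also holds for these shares. In CPM, Psmb7 itself showed little difference, with 228 and 243 in Control against 260 and 240 in DCKO (log2 fold change 0.08, SE 0.15, edgeR adjusted p = 0.726), and its sign turned with library totals (-0.26) and with TPM (-0.16). Psmb6 had 227 and 271 CPM in Control against 197 and 208 in DCKO, groups that did not overlap (log2 fold change -0.30, SE 0.17, edgeR adjusted p = 0.257). Psmb7 shares 405 exonic bases with Nek6 on the opposite strand, and whether counting used strand is not given in the sources used here. Of the remaining beta subunits, Psmb4 had 202 and 210 CPM against 166 and 176, with no overlap, and Psmb1 had 136 and 139 against 149 and 143, with both DCKO libraries higher. Psmb2 and Psmb3 overlapped between groups. The class median log2 fold change was -0.16.

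ATPase genes were lower in both DCKO libraries than in both Control libraries for 5 of 6 members, beside 32.9% of all tested genes. None passed the adjusted threshold in edgeR. At an unadjusted p under 0.05, 1 was lower, beside 17.4% of all tested genes. Their summed CPM was 1061 and 1112 in Control against 876 and 903 in DCKO, and the class median log2 fold change was -0.30, with a range of -0.57 to -0.03. Psmc4 (ENSMUSG00000030603, chr7:28041707-28050101, minus strand) had the smallest p, with 168 and 188 CPM in Control against 114 and 126 in DCKO (log2 fold change -0.57, SE 0.16, 95% interval -0.97 to -0.17, edgeR adjusted p = 0.0639). DESeq2 called it lower. Psmc1 (218 and 229 against 177 and 171 CPM), Psmc3 (202 and 212 against 164 and 180) and Psmc5 (184 and 200 against 152 and 151) had nearly the same pattern, and Psmc2 a shallower form of it (165 and 164 against 148 and 157). Psmc6, the exception, had 124 and 118 CPM against 121 and 117, and its groups overlapped. Relative to the core, summed ATPase TPM was 0.922 and 0.979 of the summed TPM of Psma1 to Psma7 in Control against 0.825 and 0.827 in DCKO, so this ratio did not overlap between groups. The corresponding ratio of constitutive beta to alpha subunits did, at 1.54 and 1.73 against 1.55 and 1.52.

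Lid and other non-ATPase genes had a class median log2 fold change of -0.27. In 7 of 11 both DCKO libraries lay below both Control libraries, in 1 both lay above and in 3 the groups overlapped. Over all tested genes, 32.9% lay below in this way and 33.6% above. Of the 7, 5 had an unadjusted p under 0.05, where 17.4% of all tested genes were lower, and none passed edgeR's adjusted threshold. Those 5 were Psmd12, Psmd7, Psmd3, Psmd13 and Psmd6. Psmd12 (ENSMUSG00000020720, chr11:107479484-107504362, plus strand), a structural lid subunit, had the smallest p, with 112 and 107 CPM in Control against 70.6 and 80.3 in DCKO (log2 fold change -0.54, SE 0.16, 95% interval -0.93 to -0.14, edgeR adjusted p = 0.0727). Psmd7, the partner of the deubiquitinase Psmd14, had 157 and 155 CPM against 101 and 119, and Psmd3 had 211 and 178 against 140 and 136. For Psmd14 itself, which removes the ubiquitin chain, the values were 117 and 117 CPM in Control against 97.5 and 116 in DCKO, so DCKO 2 was next to Control. Psmd13 had 102 and 135 CPM against 82.6 and 83.4, and Psmd6 had 98.4 and 96.4 against 73.1 and 76.7. In 3 members the groups overlapped: the scaffold subunit Psmd1 had 243 and 230 CPM against 239 and 248, the scaffold subunit Psmd2 had 342 and 333 against 373 and 335, and the lid subunit Psmd8 had 117 and 132 against 140 and 116. Psmd4, a ubiquitin receptor, had 101 and 119 CPM in Control against 133 and 125 in DCKO, the only member of the class with both DCKO libraries higher (log2 fold change 0.23, 95% interval -0.18 to 0.65, edgeR adjusted p = 0.356). DESeq2 called Psmd12, Psmd3 and Psmd7 lower beside Psmb5 and Psmc4, in a test that called 13.5% of all genes lower.

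**Figure D4:**
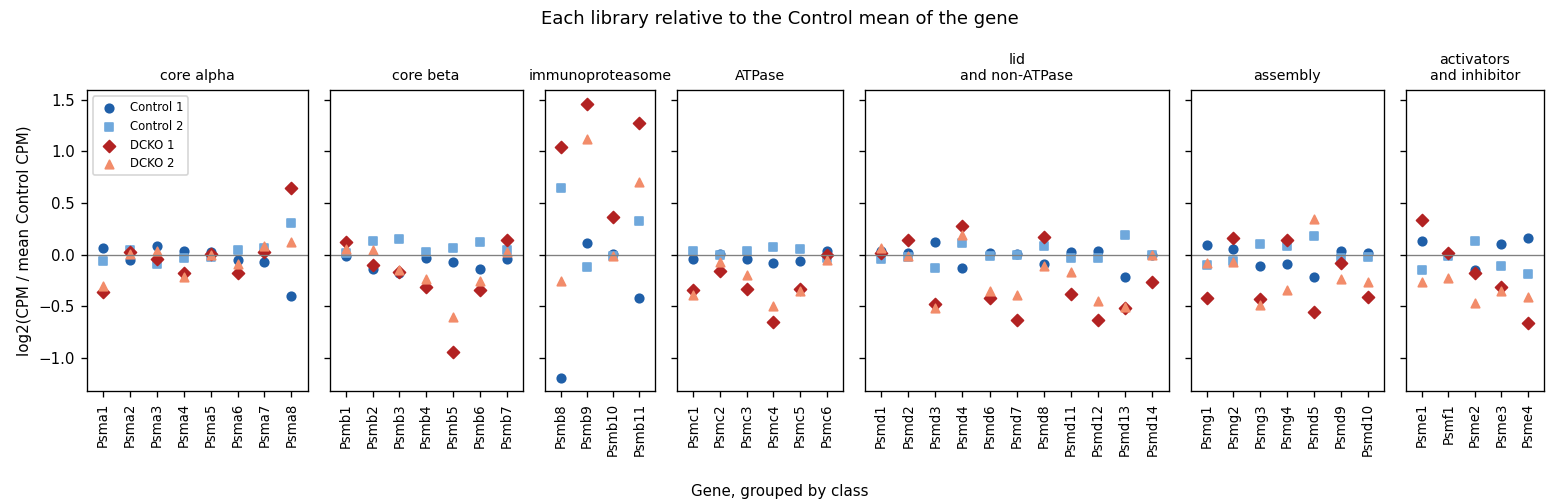
Log2 ratio of each library's CPM to the mean Control CPM of the gene, 1 panel per class and 1 symbol per library, with 0 marking the Control mean. Control libraries cluster near 0 for the constitutive subunits, and the immunoproteasome genes scatter most. In 5 of 6 ATPase and 7 of 11 lid and non-ATPase genes both DCKO libraries lie below both Control libraries, beside 32.9% of all tested genes.

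Assembly factors, the chaperones that build the particle, showed no called member among 7 by edgeR, 0 with an unadjusted p under 0.05 and a class median log2 fold change of -0.15. Psmg3, which chaperones alpha-ring formation, had the smallest p, with 19.4 and 22.4 CPM in Control against 15.6 and 14.9 in DCKO (log2 fold change -0.45, SE 0.19, 95% interval -0.92 to 0.02, edgeR adjusted p = 0.149). Psmg1 (39.3 and 34.3 against 27.5 and 34.7 CPM), Psmg2 (26.6 and 24.5 against 28.6 and 24.4) and Psmg4 (18.6 and 21.1 against 21.8 and 15.6) overlapped between groups. Of the chaperones of the ATPase ring, Psmd9 had 28.3 and 27.0 CPM against 26.2 and 23.5, and Psmd10 had 21.3 and 20.7 against 15.9 and 17.5. Psmd10 is on the X chromosome, and Xist, transcribed from the inactive X, stood at 10837 and 7786 counts in Control against 8 and 22 in DCKO. The groups thus differed in Xist, and so may have differed in embryo sex, as well as in genotype. The part of each in Psmd10, as in every other gene, cannot be told apart. Psmd5 was the most uneven constitutive member between libraries of a group, with 47.0 and 61.8 CPM in Control against 36.9 and 69.2 in DCKO, a 1.87-fold gap within DCKO.

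Of the activators, Psme4, which encodes the large nuclear cap protein, had 211 and 165 CPM in Control against 119 and 142 in DCKO. Both DCKO libraries were below both Control libraries (log2 fold change -0.53, SE 0.20, 95% interval -1.02 to -0.04, edgeR adjusted p = 0.119). Psme3, the other nuclear activator, had 172 and 149 CPM against 129 and 126, again without overlap. The interferon-inducible pair that forms 1 joint cap did not show a common shift: Psme1 had 27.4 and 22.6 CPM against 31.5 and 20.8, and Psme2 had 24.3 and 29.5 against 23.9 and 19.5. The log2 fold changes were 0.06 (SE 0.25, edgeR adjusted p = 0.881) for Psme1 and -0.31 (SE 0.20, edgeR adjusted p = 0.319) for Psme2. The sign for Psme1 turned with library totals (-0.28), with TPM (-0.09), without Control 2 (-0.10) and without DCKO 1 (-0.27). Psme2 has a near-identical protein-coding copy, Psme2b, at 99.37% identity, which held 54 and 42 counts in Control against 21 and 18 in DCKO. Psmf1, an inhibitor of the core, had 32.8 and 32.5 CPM against 33.1 and 27.9.

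Immunoproteasome genes had low levels, with no more than 29 counts in any library for Psmb8, Psmb9 and Psmb11. None of the 4 was called by edgeR, with 0 at an unadjusted p under 0.05. Psmb10 was the most abundant, with 235 and 188 counts in Control against 192 and 137 in DCKO (3.75 and 3.72 against 4.80 and 3.71 CPM; log2 fold change 0.19, SE 0.31, edgeR adjusted p = 0.699). Its groups overlapped, and its sign turned with library totals (-0.16) and without DCKO 1 (-0.02). Psmb8 had 8 and 23 counts in Control against 24 and 9 in DCKO, so that each group held 1 low and 1 high library (log2 fold change 0.55, SE 0.85, edgeR adjusted p = 0.679). Psmb9 (ENSMUSG00000096727, chr17:34181987-34187764, minus strand) had 16 and 11 counts in Control against 26 and 19 in DCKO, and both DCKO libraries were higher. Its log2 fold change of 1.29 had a 95% interval of -0.09 to 2.67 (SE 0.55, edgeR adjusted p = 0.160). Pooled over a group, its CPM was 0.238 in Control (95% exact Poisson interval 0.157 to 0.347) and 0.585 in DCKO (0.427 to 0.782), intervals that cover counting error only. Psmb11 had 14 and 19 counts in Control against 29 and 18 in DCKO (log2 fold change 1.02, SE 0.59, edgeR adjusted p = 0.270). In TPM, Psmb8, Psmb9 and Psmb10 together amounted to 0.715% and 0.624% of Psmb5, Psmb6 and Psmb7 together in Control, and to 1.19% and 0.821% in DCKO. Most of this ratio was Psmb10. The summed TPM of the 4 genes of the class overlapped between groups (8.37 and 6.87 in Control against 8.84 and 7.44 in DCKO). In the denominator, TPM was lower in both DCKO libraries for Psmb5 (253 and 232 against 100 and 151) and Psmb6 (535 and 528 against 330 and 413). The higher ratio therefore does not show a higher level of the immunoproteasome genes. DCKO 1, the library with the higher ratio, also had the highest summed CPM of 8 macrophage markers (72.4, against 26.8, 34.3 and 24.1 in Control 1, Control 2 and DCKO 2), none of which was called. Macrophage markers all had counts in every library, whereas of 5 lymphoid markers 1 was at 0 in all libraries, the others were at 0 in some, and their summed CPM was 0.112 to 0.244. The part of blood cells in these levels was not tested.

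The list of 20 antigen processing and interferon genes gives the surroundings of the immunoproteasome. Of its 15 tested members, edgeR called 3 higher, beside 8.93% of all tested genes, and 0 lower, beside 8.11%. The median log2 fold change was 0.51. Tap1, which encodes a subunit of the peptide transporter and is the head-to-head neighbour of Psmb9, had 41 and 25 counts in Control against 182 and 115 in DCKO (log2 fold change 2.73, SE 0.43, edgeR adjusted p = 0.0183). Psmb9 and Tap1 share 212 exonic bases on opposite strands, so reads from that stretch could be counted for either gene if strand was not used. H2-K1, a class I histocompatibility gene with 15.95 and 21.4 CPM against 39.9 and 31.5 (log2 fold change 0.93, SE 0.23, edgeR adjusted p = 0.0474), and Rnf213, an interferon-inducible ubiquitin ligase with 6.88 and 6.09 CPM against 11.6 and 14.2 (0.99, SE 0.24, edgeR adjusted p = 0.0448), passed narrowly. Without Control 1 or without Control 2 none of the 3 calls remained (edgeR adjusted p = 0.0981 and 0.125 for Tap1, 0.282 and 0.146 for H2-K1, 0.224 and 0.277 for Rnf213), as with most calls over all genes, while their log2 fold changes were 2.94, 0.73 and 1.08 without Control 1 and 2.51, 1.13 and 0.88 without Control 2. With library totals the calls of H2-K1 (0.109) and Rnf213 (0.102) were lost. Without DCKO 1, H2-K1 was also lost (0.0638). Endothelial and mesenchymal markers rose in the same libraries, and their part in these values was not tested.

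Among 24 tested proteasome-linked genes outside the symbol rule, edgeR called 1 higher and 2 lower. Of all tested genes it called 8.93% higher and 8.11% lower, so these few calls do not set the list apart. The median log2 fold change of the list was 0.03. Adrm1 encodes a ubiquitin receptor of the regulatory particle, and it fell from 64.3 and 75.4 CPM in Control to 34.3 and 39.4 in DCKO (log2 fold change -0.92, SE 0.17, edgeR adjusted p = 0.0272). Zfand5, a zinc-finger protein that binds and stimulates the proteasome, fell from 99.0 and 83.9 CPM to 43.2 and 48.6 (log2 fold change -0.99, SE 0.17, edgeR adjusted p = 0.0228). Nfe2l2, the transcription factor of the oxidative stress response, rose from 21.5 and 19.1 CPM to 36.2 and 37.9 (log2 fold change 0.87, SE 0.16, edgeR adjusted p = 0.0272). The 3 differences were larger than the spread within each group. The calls of these 3 genes were each lost without Control 1 (edgeR adjusted p = 0.114, 0.153 and 0.164) and without Control 2 (0.172, 0.0985 and 0.226), as were most calls over all genes, while their log2 fold changes were -1.04, -0.88 and 0.95 without Control 1 and -0.83, -1.14 and 0.75 without Control 2. The call of Nfe2l2 was also lost with library totals (0.0733) and with TPM (limma adjusted p = 0.170). Nfe2l1, known to drive proteasome gene transcription when the proteasome is inhibited, had 47.4 and 41.4 CPM against 59.0 and 48.8, with a log2 fold change of 0.28 (edgeR adjusted p = 0.310), and Pomp, the maturation chaperone of the core, had 73.2 and 82.1 CPM against 67.6 and 61.8, with a log2 fold change of -0.26 (edgeR adjusted p = 0.295).

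Because factors of the Nfe2l family act through antioxidant response elements, promoters of the members were searched on both strands for the element's core, TGACNNNGC. RefSeq windows (GRCm38.p6) from 250 bases before to 50 bases after the start of transcription were on hand for 40 of the 48 members. The core was found in 6 of 40 members (15%): Psmb5, Psmb6, Psmc6, Psmd12, Psmd9 and Psme4. By window, the share was 13.95% for members, 12.4% for all 32851 windows and 14.1% for the windows of tested genes, so members did not exceed the tested genes. These 6 members had a median log2 fold change of -0.41, with a range of -0.76 to -0.03, and 5 of them had both DCKO libraries below both Control libraries. The 34 without it had a median of -0.12, and 16 of them had that pattern. Of all tested genes, 32.9% had it. Those 34 include Psmb8, Psmb9 and Psmb11, which had low counts, and the difference between the 2 sets was not tested. A match is a description of letters and not evidence of binding. Printed here are the promoters of 4 of the 6 members with the core, chosen for the lowest log2 fold changes. They run 5' to 3' on the gene's strand, from 250 bases before to 30 bases after the start, with the core or its reverse complement in capitals. They show that the core lies close to the start in Psmb5 (first base 47 before it), Psmb6 (9 before) and Psme4 (7 before) and far upstream in Psmd12 (247 before). They come from chr14:54617966-54618245 (minus strand), chr11:70525107-70525386 (plus strand), chr11:107479278-107479557 (plus strand) and chr11:30771525-30771804 (plus strand), in the order printed.
Psmb5: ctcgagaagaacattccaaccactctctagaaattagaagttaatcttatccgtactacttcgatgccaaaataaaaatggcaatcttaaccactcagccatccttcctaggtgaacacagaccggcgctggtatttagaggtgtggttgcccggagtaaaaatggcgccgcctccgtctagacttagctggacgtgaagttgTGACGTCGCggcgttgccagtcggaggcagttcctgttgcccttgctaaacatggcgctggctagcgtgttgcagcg
Psmb6: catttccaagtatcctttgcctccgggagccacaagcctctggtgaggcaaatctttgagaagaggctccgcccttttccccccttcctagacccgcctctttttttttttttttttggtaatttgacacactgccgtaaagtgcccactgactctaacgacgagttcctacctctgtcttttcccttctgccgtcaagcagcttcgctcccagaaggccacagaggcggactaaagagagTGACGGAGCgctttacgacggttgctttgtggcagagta
Psmd12: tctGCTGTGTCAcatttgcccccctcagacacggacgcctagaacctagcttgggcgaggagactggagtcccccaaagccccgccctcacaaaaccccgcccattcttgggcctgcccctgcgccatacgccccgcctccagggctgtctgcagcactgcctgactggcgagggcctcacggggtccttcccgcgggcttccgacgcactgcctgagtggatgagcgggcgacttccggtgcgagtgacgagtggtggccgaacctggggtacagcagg
Psme4: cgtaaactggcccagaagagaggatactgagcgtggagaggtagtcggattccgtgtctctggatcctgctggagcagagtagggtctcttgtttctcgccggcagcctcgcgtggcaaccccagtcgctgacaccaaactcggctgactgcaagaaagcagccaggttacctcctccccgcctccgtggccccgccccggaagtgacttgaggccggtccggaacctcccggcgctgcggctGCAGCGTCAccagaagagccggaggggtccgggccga
The other motifs searched were the CCAAT box and the core of the interferon-stimulated response element. CCAAT was found in 14 of 40 members (35.0%), and in 32.6% of member windows against 37.4% of all windows and 37.2% of those of tested genes. The interferon element's core was found in 5 of 40 members (12.5%), namely Psmb3, Psmd4, Psmd9, Psme1 and Psmg4, and in 11.6% of member windows against 3.44% of all windows and 2.82% of those of tested genes. None of these 5 was called by edgeR, and their log2 fold changes ran from -0.16 for Psmb3 to 0.23 for Psmd4.

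Near-identical copies and overlapping genes limited the assignment of counts for other members as well. A copy with at least 95% identity over at least 200 bases was found for 10 of the 48 members, Psmb5 included, and 13 had exons that overlap another gene. Apart from Gm3375, the copy with the most counts was Gm13835, which is identical to part of Psma3 and held 152 to 279 counts beside at least 4509 for Psma3 itself.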

How the data were processed

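RNA-seq of 2 Control and 2 DCKO libraries was used. The deposited gene counts are whole numbers per Ensembl gene without scaling, and the deposited TPM are length-scaled abundances made by the authors. The authors' deposited table gives a log2 fold change and a p-value with its false discovery rate for each listed gene. Tools named in the submitters' processing notes, without roles, are TopHat2 2.1.1, edgeR 3.16.5, limma 3.30.13, R 3.3.2 and StringTie, with the builds mm10 and GRCm38. The read counter and its use of strand are not given in the sources used here.

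Of 54532 gene IDs, 54409 matched GENCODE M21 on GRCm38. Counts were tested with edgeR 4.0.16 in R 4.3.3: filterByExpr (minimum count 10, minimum total 15; 19207 genes kept), TMM scaling, a quasi-likelihood fit with group as the only term (2 residual degrees of freedom), two-sided tests, Benjamini-Hochberg adjustment over all tested genes and a threshold of 0.05. Embryos were separate, and p-values rest on 2 libraries per group. An exact permutation test of 2 against 2 cannot go below p = 0.333, so sums and ratios are given as values without a test. On simulated counts for this comparison (18624 genes), edgeR recovered 34% of 100 genes changed 2-fold and 99% of 100 changed 4-fold, with 6 false calls. The changed genes were drawn only from genes with high mean counts, and all others were left unchanged. These shares therefore do not cover the members with low counts. Far fewer genes were changed than the 1716 and 1558 called in the data, which makes the adjusted threshold stricter in the simulation. Simulated counts also took the spread of the trend over all genes rather than each gene's own. For both reasons the shares do not give the recovery in these data. Alternatives were DESeq2 1.42.0, limma-voom (limma 3.58.1), log2(TPM + pseudocount) with pseudocounts of 1 and 0.1 in limma and a minimum mean TPM of 1 or none, other scalings, no filter, a replicate block and leaving out each library. Copies were found with blastn 2.17.0.

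Members and gene lists were chosen with earlier results of these data known. Named genes were, per class, up to 3 called members or else the member with the smallest p, the constitutive and inducible catalytic subunits, Psme1 and Psme2, the members of highest and lowest mean TPM, up to 4 called genes per list, and Lats1 and Lats2. Other members are given by their values. Nfe2l1, Pomp and the copies were named after their values were seen.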

Additional observations from a re-analysis of the deposited data

How the results depend on the processing

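No member was called higher under any alternative tried. The count of 1 member lower became 18 with library totals (beside 19.5% of all genes), 5 with DESeq2 (13.5%), and 3 of 44 with log2(TPM + 1) (11.5%) or log2(TPM + 0.1) (10.8%) filtered at a mean TPM of 1. It was 0 with upper-quartile scaling (7.33%), with the replicate block (4.04%) and with near-identical copies summed (8.13%), an alternative chosen after seeing the data. It was also 0 with unfiltered log2(TPM + 1), which called 0 of 30682 genes in either direction and so says nothing about the members. Leaving out each library gave 0 to 1, where the share of all genes called lower was 0.673% and 0.354% on omitting Control 1 or Control 2, and 10.9% and 12.5% on omitting DCKO 1 or DCKO 2. Psmb5 had an adjusted p of 0.0520 with upper quartiles, 0.139 with unfiltered TPM and 0.0723 with the replicate block. Across genes, the difference between the 2 Control libraries correlated at -0.0274 with that between the 2 DCKO libraries. This rests on 1 difference per group, so it cannot show whether same-numbered libraries were paired. The block moved the calls over all genes from 1716 to 1002 higher and from 1558 to 776 lower, and ended the calls of Adrm1 (adjusted p = 0.0523), Zfand5 (0.0519) and Nfe2l2 (0.0699). Library totals shifted the median of all genes by -0.35, and the members' median minus that of all genes was -0.16 with TMM and with totals. The members' median log2 fold change was -0.089 with upper quartiles, -0.48 with totals, -0.16 without a filter, -0.41 with either filtered TPM setting, -0.38 with unfiltered TPM and -0.19 to -0.14 with a library left out. Class medians with totals were -0.35 for core alpha, -0.51 for core beta, -0.65 for ATPase, -0.62 for lid, -0.50 for assembly and -0.66 for activators. Under log2(TPM + 1), log2(TPM + 0.1) and unfiltered TPM they were -0.25, -0.25 and -0.24 for core alpha, -0.40 in each for core beta, -0.57 in each for ATPase, -0.48, -0.49 and -0.48 for assembly, -0.47, -0.48 and -0.47 for activators, and 0.029, 0.034 and 0.070 for the immunoproteasome. Core alpha was 0.044 with upper quartiles and -0.031 without a filter. With each library left out in turn, class medians ran from -0.083 to -0.0020 for core alpha, -0.30 to -0.017 for core beta, -0.36 to -0.28 for ATPase, -0.38 to -0.18 for lid, -0.41 to -0.18 for assembly, -0.36 to -0.18 for activators and 0.34 to 1.27 for the immunoproteasome. Signs turned for Psmb7 (-0.26 with totals, -0.16 with each TPM setting), Psmb10 (-0.16 with totals; -0.017 to 0.36 with a library left out), Psme1 (-0.28 with totals, -0.091 with log2(TPM + 1), filtered or not, and -0.093 with log2(TPM + 0.1); -0.27 to 0.33 with a library left out) and Psmb8 (-0.24 to 1.67 with a library left out). The cause of these changes was not tested. In simulation with 2 libraries per group, 34% of 2-fold changes of genes with high counts were recovered. The adjusted threshold was stricter there than in the data, so this share does not carry over to the members. The 4 members below 1 TPM have intervals wider than a 4-fold range.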
